A study of Mus musculus with 4 samples.

Results

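The replication-dependent histone genes make the core histones H2A, H2B, H3 and H4, around which DNA is wrapped, and the linker histone H1, which binds where DNA enters and leaves the core particle. In the mouse they lie in gene clusters whose names begin with Hist1, Hist2, Hist3 and Hist4. A total of 69 rows of the deposited expression table carried such a name, and 64 of them, listed here as members, were selected on a level of at least 1 TPM (the share of a transcript among all, corrected for its length) in at least 2 of the 4 libraries. By class, the members were 5 H1, 17 H2A, 18 H2B, 11 H3 and 13 H4 genes, with the processed pseudogene Hist3h2bb-ps counted under H2B. The table held 24497 rows, and 11866 of them reached the same level and were tested. The levels compared below are the levels that chose these genes, so they are given as a description of the genes, and no test was made of the group as a whole.

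The RNA came from mice with MLL-AF9 (MA9) acute myeloid leukaemia, which the fusion of the MLL and AF9 genes drives. CD45.2 donor leukaemia cells were carried in secondary recipients that had been irradiated at 320 rads, and these mice received either PBS or CS1, which inhibits FTO, an enzyme that removes methyl groups from RNA, at 5 mg/kg into the peritoneum on alternate days over 20 days. Spleen cells of both groups were freed of red cells, bead-enriched for CD45.2 and used for poly(A)-selected RNA-seq, with 2 PBS and 2 CS1 libraries. The sources used here do not give the age and strain of the mice, nor whether the libraries of a group came from separate mice or separate primary leukaemias. For CS1 replicate 2 the treatment entry says CS2, but the title and description say CS1, and it was treated as CS1. The 4 columns summed to between 977973 and 986345 TPM, TPM keeps no read depth, and between 11459 and 11813 features per library reached 1 TPM. All 15 markers of the myeloid leukaemia were detected, and 8 rose while 5 fell, beside 35.3% and 31.6% of all tested features.

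Replication-dependent histone mRNAs are the animal mRNAs that normally carry no poly(A) tail. Their 3′ end is made by a single cut downstream of a conserved stem-loop, which is held by the stem-loop binding protein SLBP, with the U7 small nuclear RNP guiding the cut. They accumulate in S phase, when new DNA needs histones, and are degraded when replication ends. A poly(A)-selected library therefore takes up such mRNAs only in part, and how large a part was not measured here.

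The stem-loop was searched in the annotated transcripts (GENCODE M21, GRCm38) and was found in 44 of the 69 rows and in 0.0988% of all 141767 transcripts. The sites below are shown because they separate the H4 genes from the other classes. Each is read 5′ to 3′ on the gene's strand, and the capitals mark the loop of 4 bases between both arms of the stem.
Hist1h1c: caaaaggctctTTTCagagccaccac
Hist1h2ap: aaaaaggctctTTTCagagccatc
Hist1h2bb: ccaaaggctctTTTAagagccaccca
Hist1h2bj: ccaaaggctctTTTCagagccacgca
Hist1h3c: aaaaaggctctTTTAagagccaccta
Hist1h4b: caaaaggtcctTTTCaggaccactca
Hist1h4f: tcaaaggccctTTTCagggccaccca
Hist1h4i: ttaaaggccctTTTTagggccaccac
Hist1h4n: ctaaaggccctTTTCagggccatcca
All 33 sites of H1, H2A, H2B and H3 rows had the 5′ arm GGCTCT. Among the 11 sites of H4 rows, 9 had GGCCCT and 2 had GGTCCT, as in Hist1h4b. The loop was TTTC at 35 of the 44 sites, TTTA at 6 and TTTT at 3. The search itself allowed only loops that begin with TT and end in A, C or T. It also set the 5′ arm to GG, 3 bases of C or T, and T, so other forms could not be found. A site beyond the end of an annotated transcript could not be found either. The 6 sites with TTTA lay outside H4.

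Summed over all members, histone RNA was higher in both CS1 libraries than in both PBS libraries, in each class. The 64 members added up to 767 and 805 TPM in PBS replicates 1 and 2 and to 1807 and 1898 TPM in CS1 replicates 1 and 2. The mean sum was 786 ± 27.2 TPM in PBS and 1852 ± 64.3 TPM in CS1 (SD, n = 2 each), which is 2.36 times as much. As a share of all TPM, this was 0.0777% and 0.0816% in PBS and 0.185% and 0.194% in CS1. Of bulk values such as these, it cannot be told apart whether cells rich in histone RNA were fewer in PBS or held less of it per cell. A difference between the groups in the part taken up by poly(A) selection cannot be told apart from these either.

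Over all members, the sums of H2A and H2B differed most between the groups and that of H4 least, an order that turned when some genes were left out, as given below. H2A, which pairs with H2B in the outer dimers of the core particle, summed to 283 ± 21.4 TPM in PBS and 776 ± 64.4 TPM in CS1, a ratio of 2.74. H2B summed to 128 ± 6.19 TPM in PBS and 372 ± 1.26 TPM in CS1, a ratio of 2.90. H1 stood at 149 ± 1.58 and 310 ± 3.75 TPM, a ratio of 2.08. Of the partners in the central tetramer of the particle, H3 summed to 74.5 ± 3.39 TPM in PBS and 158 ± 2.14 TPM in CS1, a ratio of 2.13. H4 summed to 151 ± 5.31 TPM in PBS and 236 ± 2.99 TPM in CS1, a ratio of 1.57 (SD, n = 2 for each of these sums). H4 made up 20.2% and 18.3% of the histone sum in PBS replicates 1 and 2 and 13.2% and 12.3% in CS1 replicates 1 and 2, while H2A went from 34.9% and 37.0% to 40.4% and 43.3%. The groups overlapped in none of the 5 sums. An exact permutation test of 2 libraries against 2 cannot go below a two-sided p of 0.333, so the sums are given with no test.

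**Figure D1:**
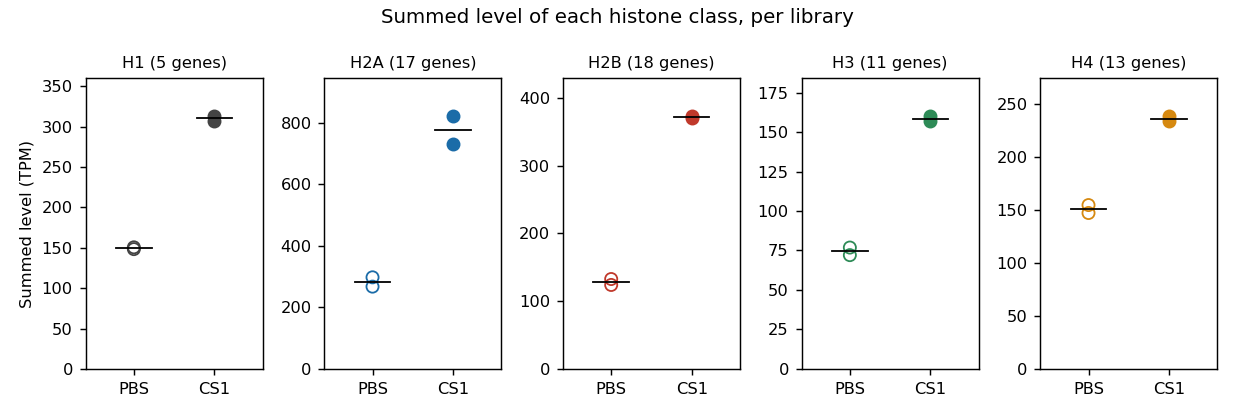
Summed level of the members of each histone class in TPM, with PBS libraries as open points, CS1 libraries as filled points and a line at each group mean; every vertical axis starts at 0 and has its own range. Both CS1 points lie above both PBS points in each class, with mean sums between 1.57 times (H4) and 2.90 times (H2B) those in PBS.

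The sums of H1 and H2A leaned on single genes. Without the gene of the highest mean level in each class (Hist1h1c, Hist1h2ap, Hist1h2bc, Hist1h3e and Hist1h4n), the ratio of CS1 to PBS was 1.56 for H1, 1.83 for H2A, 2.67 for H2B, 2.15 for H3 and 1.71 for H4. Many histone mRNAs are near copies of each other, so their reads can be assigned to the wrong gene. Over the 33 members that shared less than 50% of their 50-base words with any other annotated gene, the H2A ratio was 1.45 from 5 genes, in place of 2.74. The same selection gave 2.93 for H2B (10 genes), 2.08 for H1 (5 genes), 1.88 for H3 (4 genes) and 1.57 for H4 (9 genes), and 2.01 for all 33. In this selection H2B stayed near its full ratio and H2A had the lowest ratio of the 5 classes, below H4. That H2A ratio leaned on 1 of its 5 genes, Hist3h2a, which was not called. Hist3h2a gave a mean of 31.3 of the 54.2 TPM in PBS and 29.2 of the 78.4 TPM in CS1. Without the most abundant gene of each class, H1 lay below H4.

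Gene by gene, 50 of the 64 members (78.1%) rose in limma at an adjusted p under 0.05, where 35.3% of all tested features did. None of the 64 fell in the comparison of all 4 libraries, where 31.6% of all tested features did, and none was lower at an unadjusted p under 0.05 in limma, while 52 were higher at that level. With 1 library left out, between 0 and 2 members fell, namely Hist1h3d without PBS replicate 1, and Hist1h3b and Hist3h2a without CS1 replicate 2. A rise of at least 1 on the log2(TPM + 1) scale was called in 33 members, beside 5.02% of all tested features. Both CS1 libraries lay above both PBS libraries in 53 members, beside 45.1% of all tested features. The median log2 fold change was 1.13 over the members and 0.04 over all tested features. Because 3 members (Hist1h2bq, Hist1h2br and Hist2h2aa2) reached the level for selection only through CS1, they had to be higher there. Among the other 61, 47 rose and the median log2 fold change was 1.05.

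Replicates of one member differed more than those of a typical gene. The median difference between the libraries of a group was 0.28 (PBS) and 0.23 (CS1) on the log2(TPM + 1) scale over the members, against 1.14 between the group means. For all 11866 tested features the same medians were 0.06, 0.06 and 0.31. The wider spread was also present between 5 and 50 TPM, where the 42 members gave 0.22 in each group and the 6181 features gave 0.07.

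**Figure D2:**
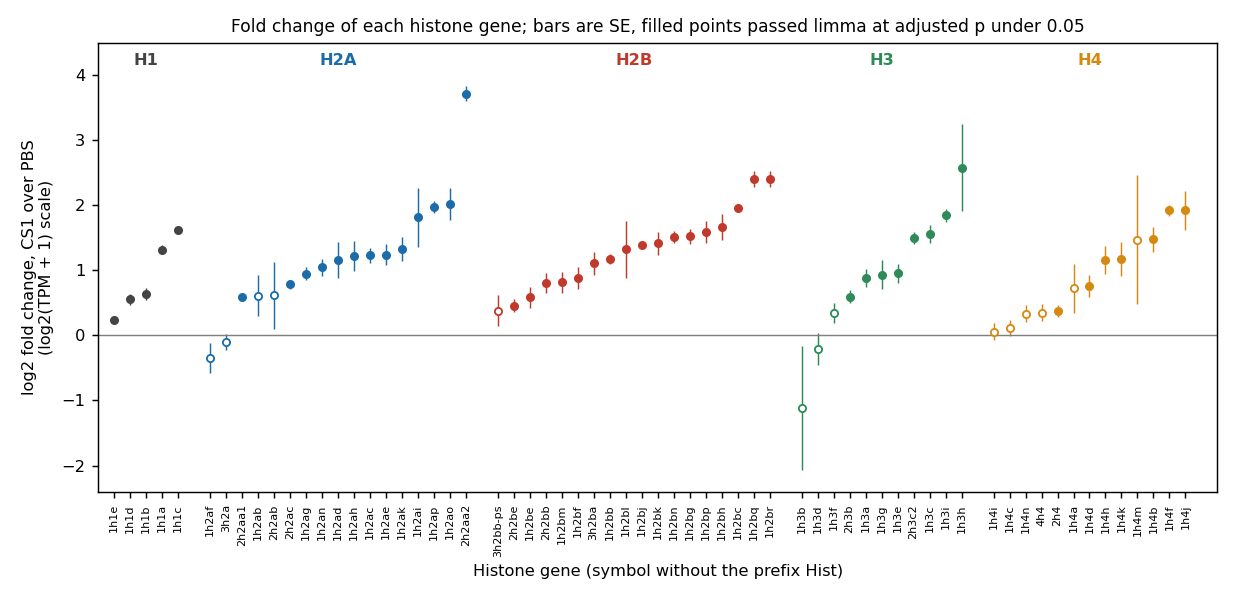
Log2 fold change of CS1 over PBS on the log2(TPM + 1) scale for each of the 64 members, grouped by class, with bars for the standard error of limma and filled points for members called at an adjusted p under 0.05. The called members all lie above 0, H2B has 17 of its 18 members called and H4 has 7 of its 13.

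All 5 linker histone genes rose, but by very different amounts. Hist1h1c read 46.5 and 51.9 TPM in PBS and 153 and 154 TPM in CS1, higher by 1.63 ± 0.05 (SE) in log2 fold change (adjusted p = 6.97e-06). It was the most abundant H1 in all 4 libraries, and its part of the H1 sum went from 32.9% to 49.6%. Hist1h1a read 16.7 and 16.4 TPM in PBS and 39.9 and 45.7 TPM in CS1 (log2 fold change 1.32 ± 0.07, adjusted p = 3.79e-05). The other three rose less. Hist1h1b read 13.0 and 12.4 TPM in PBS and 18.7 and 21.9 TPM in CS1, a log2 fold change of 0.63. Hist1h1d read 28.3 and 29.9 TPM in PBS and 47.3 and 39.6 TPM in CS1, a log2 fold change of 0.56. Hist1h1e rose least, from 43.7 and 40.02 TPM to 48.2 and 51.4 TPM (log2 fold change 0.24 ± 0.06, adjusted p = 0.0115). Its call was lost without PBS replicate 2 (adjusted p = 0.0515) and without CS1 replicate 2 (adjusted p = 0.0575). In each of the 5 genes both CS1 libraries lay above both PBS libraries. Hist1h1e and the H2B gene Hist1h2be overlap by 496 bases on the same strand of chromosome 13, so reads of that stretch could belong to either.

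Among the H2A genes, 13 of 17 rose and the median log2 fold change was 1.16. Hist1h2ap was the most abundant member, at 113 and 129 TPM in PBS and 441 and 517 TPM in CS1 (log2 fold change 1.98 ± 0.09, adjusted p = 2.16e-05). Its part of the H2A sum went from 42.7% to 61.7%. Its near copy Hist1h2ao read 2.40 and 4.91 TPM in PBS and 16.8 and 17.6 TPM in CS1 (log2 fold change 2.02 ± 0.25, adjusted p = 0.000833). Reads of this pair cannot be placed with confidence on one gene, and their sum was 115 and 134 TPM in PBS and 457 and 535 TPM in CS1. Hist2h2aa1 in the Hist2 cluster rose less, from 68.3 and 69.5 TPM to 102 and 107 TPM (log2 fold change 0.59 ± 0.04, adjusted p = 5.08e-05). Its near copy Hist2h2aa2 was listed at 0.01 TPM in both PBS libraries and at 11.97 and 12.6 TPM in CS1. Summed, the pair read 68.3 and 69.5 TPM in PBS and 114 and 119 TPM in CS1, a ratio of 1.69.

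Hist3h2a, the one H2A gene of the Hist3 cluster, was not called. It read 29.5 and 33.2 TPM in PBS and 25.6 and 32.9 TPM in CS1, with overlapping groups (log2 fold change -0.11 ± 0.12, adjusted p = 0.473). Without CS1 replicate 2 it was called lower, at -0.28 (adjusted p = 0.0409). It is the third most abundant H2A member, and it lies within the annotated span of Trim17 on the same strand. Hist1h2af, the member closest to the level for selection, read 1.56 and 0.88 TPM in PBS and 0.48 and 1.00 TPM in CS1 (log2 fold change -0.35, adjusted p = 0.224), and it was called lower after quantile scaling (-0.70, adjusted p = 0.0407). The other members nearest that level were Hist1h3f and Hist3h2bb-ps, and the nearest rows below it, all far below, were Hist1h2al (at most 0.06 TPM), Hist1h1t (0.53 TPM in CS1 replicate 1 and 0.01 TPM in the others) and Hist1h2aa (0.01 TPM throughout).

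Of the H2B members, which include the processed pseudogene Hist3h2bb-ps, 17 of 18 rose, with a median log2 fold change of 1.36. Hist1h2bc, the most abundant H2B by its mean over the 4 libraries, read 20.9 and 23.6 TPM in PBS and 87.8 and 90.6 TPM in CS1 (log2 fold change 1.96 ± 0.06, adjusted p = 6.59e-06). Hist1h2bj read 26.7 and 26.6 TPM in PBS and 75.2 and 68.2 TPM in CS1 (log2 fold change 1.39 ± 0.05, adjusted p = 1.22e-05). Hist1h2bg followed with 12.5 and 16.5 TPM in PBS and 43.2 and 43.0 TPM in CS1 (log2 fold change 1.52 ± 0.12, adjusted p = 0.000146). In all 3, the lowest CS1 value was above the highest PBS value. The smallest called rises were those of Hist2h2be, from 7.85 and 6.61 TPM to 10.6 and 9.93 TPM (log2 fold change 0.46), and Hist1h2be, from 2.10 and 1.51 TPM to 3.51 and 2.87 TPM (log2 fold change 0.58). The call of Hist1h2be was lost without PBS replicate 2 (adjusted p = 0.0890) and without CS1 replicate 1 (adjusted p = 0.103), and also after quantile scaling (log2 fold change 0.32, adjusted p = 0.134) and with no filter on low values (adjusted p = 0.0535). Hist1h2bq and Hist1h2br hold the same 4 values, 0.66 and 0.52 TPM in PBS and 7.18 and 7.63 TPM in CS1, so their reads cannot be assigned to one or the other. Hist3h2bb-ps was not called, at 2.61 and 1.77 TPM in PBS and 2.37 and 4.03 TPM in CS1, with overlapping groups, but was called without CS1 replicate 1 (adjusted p = 0.0465).

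**Figure D3:**
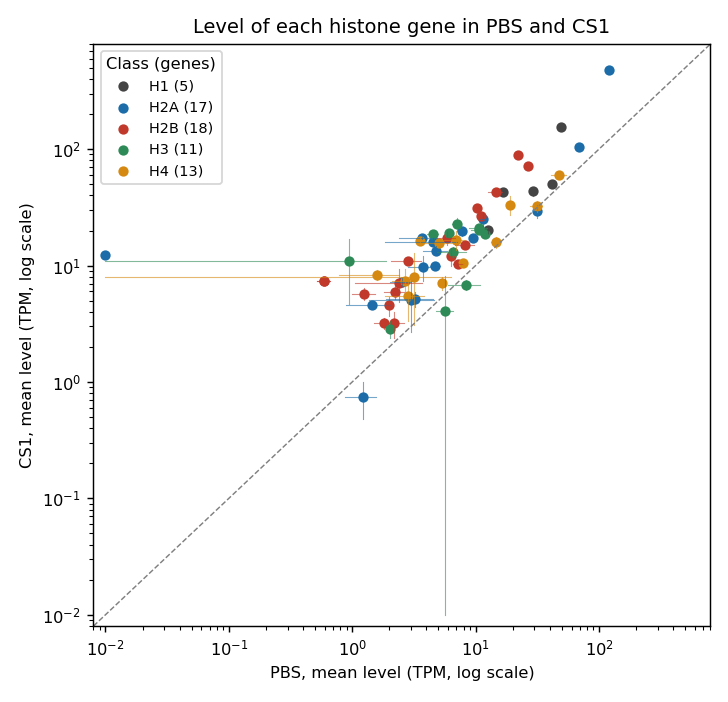
Mean level of each member in PBS (horizontal, TPM, log axis) against its mean level in CS1 (vertical, TPM, log axis), colored by class, with the diagonal of equal levels. Most members lie above the diagonal, among them Hist1h2ap as the most abundant gene in both groups, and Hist3h2a and Hist1h4i lie close to it.

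H2A and H2B genes often stand head to head, sharing the DNA between their start sites as a divergent promoter. Among the members, 12 such H2A and H2B pairs had start sites 173 to 302 bases apart, and in 11 of the 12 both genes rose. Hist1h2bq and Hist1h2br belong to 2 of these pairs, hold identical values and reached the level for selection only through CS1, so they had to be higher there. In the other 10 pairs both genes rose in 9, and the log2 fold changes of the partners lay a median of 0.39 apart. These distances and calls are a description, since neighbors in a pair share the DNA between them and each may share reads with copies elsewhere. Over all members, 13 of 17 H2A and 17 of 18 H2B genes rose, beside 35.3% of all tested features. The counts are therefore not read as a trait of pairs, and the gap of 0.39 was not set beside that of unpaired genes. For the pair with 251 bases between the start sites, Hist1h2ac went from a mean of 7.82 to 19.7 TPM and Hist1h2bc from 22.2 to 89.2 TPM. The twelfth pair was the processed pseudogene Hist3h2bb-ps and Hist3h2a, with neither called. A pair of another kind, Hist1h2bh and the H3 gene Hist1h3f at 660 bases, came apart, with Hist1h2bh called at a log2 fold change of 1.67 and Hist1h3f not called at 0.35 (adjusted p = 0.0928, and 0.0403 without CS1 replicate 1).

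The window between Hist1h2ap and Hist1h2br is shown because it lies ahead of Hist1h2ap, the most abundant member. It also holds the CCAAT box (read on either strand, so also as ATTGG) that typifies histone promoters. Reads of Hist1h2ap and Hist1h2br cannot be placed apart from those of their copies, so the levels are not tied to this window alone. It is the RefSeq promoter of Hist1h2br, at chr13:21833493-21833792 on the plus strand (GRCm38.p6), it covers both start sites, and the capitals mark its 3 CCAAT matches.
Hist1h2br: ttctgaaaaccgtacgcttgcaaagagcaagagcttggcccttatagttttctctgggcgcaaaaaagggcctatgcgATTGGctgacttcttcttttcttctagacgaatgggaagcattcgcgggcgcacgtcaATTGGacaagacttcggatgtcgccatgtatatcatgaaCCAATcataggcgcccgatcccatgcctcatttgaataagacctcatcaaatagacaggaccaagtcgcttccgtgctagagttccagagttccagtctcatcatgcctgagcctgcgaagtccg
Of the 69 rows, 61 had a RefSeq window of 250 bases before to 50 bases after the start. CCAAT was found in 52 of these 61 windows and in 37.4% of the 32851 RefSeq windows of the same length. All 17 H2A, 16 H2B, 10 H3 and 6 H1 windows held it, against 3 of the 12 H4 windows. TATAAA, read on the gene's strand, was in 30 of the 61 windows and in 8.32% of all. Windows of head-to-head genes overlap and are not independent.

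Among the H3 genes, 8 of 11 rose, and the levels of some were unstable between libraries. Hist1h3e read 12.3 and 8.80 TPM in PBS and 21.4 and 20.8 TPM in CS1 (log2 fold change 0.95 ± 0.15, adjusted p = 0.00195). Hist1h3a read 12.1 and 9.19 TPM in PBS and 18.7 and 21.9 TPM in CS1 (log2 fold change 0.88 ± 0.14, adjusted p = 0.00221). Hist2h3b read 11.02 and 13.0 TPM in PBS and 17.3 and 20.0 TPM in CS1, a log2 fold change of 0.60. In these 3, the CS1 libraries were both the highest. Hist1h3h was called with a log2 fold change of 2.57 ± 0.67 (adjusted p = 0.0164), but its libraries read 0.01 and 1.87 TPM in PBS and 17.0 and 4.72 TPM in CS1. Its call was lost without PBS replicate 1 (adjusted p = 0.0736) and without CS1 replicate 1 (adjusted p = 0.0611), with no filter (adjusted p = 0.0726) and without the variance trend (adjusted p = 0.0570). Hist1h3b, picked after its values were seen, likewise read 6.59 and 4.79 TPM in PBS and 0.01 and 8.19 TPM in CS1. A level of 0.01 in one library beside several TPM in its replicate also occurred for the H4 gene Hist1h4m, at 0.01 and 6.29 TPM in PBS and 3.08 and 12.9 TPM in CS1. Hist1h3f read 1.96 and 2.07 TPM in PBS and 2.40 and 3.34 TPM in CS1 and was not called.

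H4 had the lowest share of members called, 7 of 13, and its most abundant genes were among those not called. Hist1h4n read 53.7 and 40.8 TPM in PBS and 62.7 and 56.1 TPM in CS1 (log2 fold change 0.34 ± 0.13, adjusted p = 0.0606), and was called without PBS replicate 1 (0.53, adjusted p = 0.00478), after quantile scaling (adjusted p = 0.0481) and with a mean filter of 5 TPM (adjusted p = 0.0486). Hist1h4i read 27.7 and 34.6 TPM in PBS and 35.8 and 29.0 TPM in CS1, with overlapping groups (log2 fold change 0.05 ± 0.13, adjusted p = 0.733). Hist1h4d rose, from 20.6 and 17.5 TPM to 27.3 and 39.6 TPM (log2 fold change 0.76 ± 0.17, adjusted p = 0.00999, 0.0560 without PBS replicate 2 and 0.0505 with no filter). Hist2h4 rose least among the called members of the class, from 7.91 and 7.79 TPM to 11.3 and 9.70 TPM (log2 fold change 0.38, adjusted p = 0.0151), and its adjusted p was 0.0532, 0.0609 and 0.0710 without PBS replicate 1, PBS replicate 2 and CS1 replicate 1, and 0.0646 after quantile scaling (log2 fold change 0.23). The largest rises of the class, chosen after their values were seen, were those of Hist1h4j and Hist1h4f. Hist1h4j read 0.78 and 2.39 TPM in PBS and 9.21 and 7.49 TPM in CS1 (log2 fold change 1.92 ± 0.30, adjusted p = 0.00228). Hist1h4f read 3.46 and 3.69 TPM in PBS and 15.5 and 17.2 TPM in CS1 (log2 fold change 1.92 ± 0.09, adjusted p = 2.37e-05). The replication-dependent H4 genes are known to encode the same protein. Hist1h4n and its near copy Hist1h4m summed to 53.7 and 47.1 TPM in PBS and 65.8 and 69.0 TPM in CS1, a ratio of 1.34.

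The RefSeq promoter windows of Hist1h4f (chr13:23551619-23551918, minus strand) and Hist1h4i (chr13:22041313-22041612, minus strand) are shown as an H4 gene with a large rise and one that was not called, on GRCm38.p6. Neither holds CCAAT, and the capitals mark the 1 TATAAA in each.
Hist1h4f: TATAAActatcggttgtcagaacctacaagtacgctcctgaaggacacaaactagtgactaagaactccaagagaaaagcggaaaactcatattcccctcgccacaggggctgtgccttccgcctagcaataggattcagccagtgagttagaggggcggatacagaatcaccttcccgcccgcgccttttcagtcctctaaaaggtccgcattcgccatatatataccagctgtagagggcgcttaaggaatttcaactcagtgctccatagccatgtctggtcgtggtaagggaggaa
Hist1h4i: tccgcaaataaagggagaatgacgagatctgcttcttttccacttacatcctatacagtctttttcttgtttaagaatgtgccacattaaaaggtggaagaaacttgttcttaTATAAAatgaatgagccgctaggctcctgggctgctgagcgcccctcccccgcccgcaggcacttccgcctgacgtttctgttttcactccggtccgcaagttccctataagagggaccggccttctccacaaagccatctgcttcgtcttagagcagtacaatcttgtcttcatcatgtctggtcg
In Hist1h4f the match is at the far upstream end of the window, and in Hist1h4i the match also lies well upstream of the start site. A match or its absence describes only these letters in this window.

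By gene cluster, 41 of 51 Hist1 members and 8 of 9 Hist2 members rose, with median log2 fold changes of 1.22 and 0.62. For this and the counts below, 35.3% of all tested features rose. In the Hist3 cluster 1 of 3 rose, and the single Hist4 member, Hist4h4, was not called, at 5.54 and 5.05 TPM in PBS and 8.00 and 6.14 TPM in CS1 (adjusted p = 0.0623). The members were also divided by the annotated 3′ end. Of 21 members whose transcript ends within 60 bases after the stem-loop, 17 rose, with a median log2 fold change of 1.16. Of 21 with a transcript that runs on past it, 15 rose (median 0.76). Of 22 with no stem-loop in the annotated transcript, 18 rose (median 1.196). Some of these 22 have a short annotated transcript, such as Hist1h2bl (381 bases) and Hist1h4k (312 bases). They are therefore not read as genes that lack a stem-loop. With a poly(A) signal near the annotated end, 11 of 14 rose (median 1.13), and without one 39 of 50 did (median 1.11). Members of at least 10 TPM on average rose in 28 of 32 cases (median 1.17), and those below 10 TPM in 22 of 32 (median 1.03).

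Of 27 genes that make and process histone mRNA, 5 rose and 10 fell, where 35.3% of all tested features rose and 31.6% fell, and the median of their log2 fold changes was -0.05. Slbp, which encodes the stem-loop binding protein, read 69.0 and 63.7 TPM in PBS and 68.4 and 62.9 TPM in CS1, with overlapping groups (log2 fold change -0.01 ± 0.06, adjusted p = 0.831). Npat, a coactivator of histone genes in S phase, rose slightly, with a log2 fold change of 0.29 (adjusted p = 0.0205), but with 3 libraries its adjusted p lay between 0.0677 and 0.0938 except without CS1 replicate 2, and after quantile scaling its log2 fold change was 0.14 (adjusted p = 0.156). Srrt, which links the RNA cap to 3′ end processing, rose from 152 TPM in both PBS libraries to 206 TPM in both CS1 libraries (log2 fold change 0.44, adjusted p = 3.12e-05). Eri1, an exonuclease that trims histone mRNA at the stem-loop, fell from 38.7 and 38.6 TPM to 24.4 and 21.97 TPM (adjusted p = 0.000189). Cpsf2, a subunit of the complex that cuts histone pre-mRNA, fell from 33.1 and 33.2 TPM to 23.6 and 22.9 TPM (adjusted p = 0.000263).

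Among 23 tested histone chaperone and deposition genes, 12 rose and 7 fell, beside 35.3% and 31.6% of all tested features. Their log2 fold changes had a median of 0.15. Atrx, which helps to place the H3.3 variant, rose from 53.4 and 54.1 TPM to 80.5 and 81.3 TPM (log2 fold change 0.58, adjusted p = 3.51e-05). Anp32e, which removes H2A.Z from chromatin, rose by a log2 fold change of 0.48, and Set, a histone chaperone also known as an inhibitor of acetylation, fell, with a log2 fold change of -0.30. Of the 11 tested replacement histones, which are also made outside S phase and mostly from polyadenylated mRNAs, 7 rose and 2 fell (median 0.40).

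Histone RNA is a product of S phase, so genes of the cell cycle were set beside it. Of 34 genes of S phase and DNA synthesis, 10 rose and 9 fell (median 0.05), shares not far from the 35.3% and 31.6% of all tested features, and their sums were 1949 to 1962 TPM in PBS and 1900 to 1922 TPM in CS1. Pcna, the sliding clamp of the replication fork, fell slightly (log2 fold change -0.19, adjusted p = 0.000498). Of 22 genes of G2 and mitosis, 19 rose and 1 fell (median 0.53), with sums of 968 to 972 TPM in PBS and 1361 to 1383 TPM in CS1. Mki67, a marker of cycling cells, rose by a log2 fold change of 0.17 (adjusted p = 0.00203). The histone sum stood higher in CS1 by a ratio of 2.36, and the S phase sum was slightly lower in both CS1 libraries than in both PBS libraries. The S phase list moved both ways. Pcna and the Mcm genes fell, while genes such as Tk1 (log2 fold change 0.63) and Prim1 (0.54) rose. The part of S phase in the histone difference was not tested.

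RNAs without a poly(A) tail were set beside the histones as well, because poly(A) selection keeps such RNAs only in part. Of 17 of them listed, 6 were tested and 2 rose (median 0.24), where 35.3% of all tested features rose and 31.6% fell. The rows named as snoRNA or scaRNA, which guide the modification of other RNAs and carry no poly(A) tail when mature, numbered 119, of which 62 were tested, 31 rose and 4 fell (median 0.82). Their sums were 2090 to 2469 TPM in PBS and 4374 to 4591 TPM in CS1. Of the 13 tested Snhg genes, which host snoRNAs in their introns and are polyadenylated, all 13 rose (median 0.71). The sums of snoRNA rows and of G2 and mitosis genes thus moved in the same direction as the histone sums, and their part in the histone difference was not tested.

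**Figure D4:**
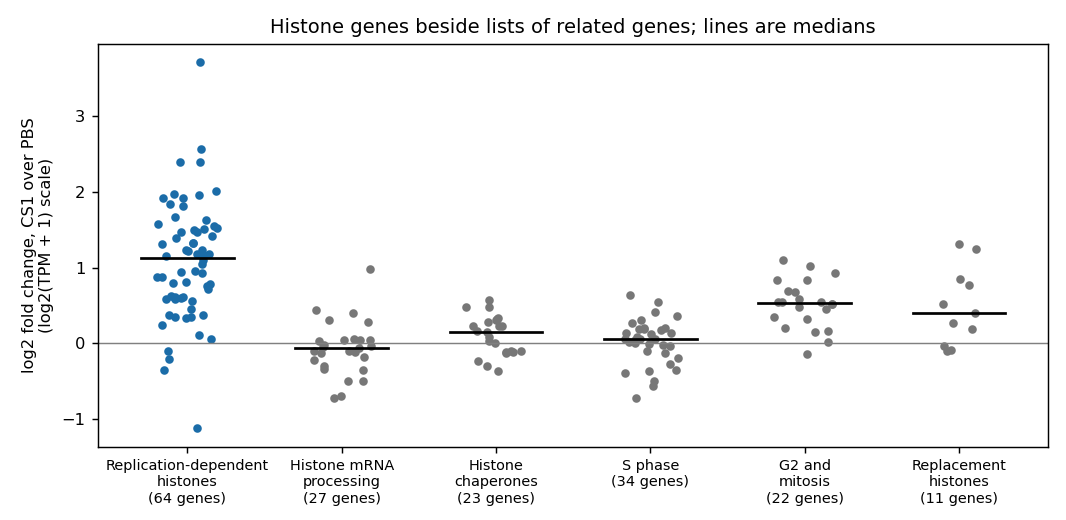
Log2 fold changes of CS1 over PBS on the log2(TPM + 1) scale for the 64 histone members together and for the tested genes of related lists. The lists are histone mRNA processing, histone chaperones, S phase, G2 and mitosis, and replacement histones, with 1 point a gene and a line at the median. The medians are 1.13 for the histone members, -0.05 for processing, 0.15 for chaperones, 0.05 for S phase, 0.53 for G2 and mitosis and 0.40 for replacement histones.

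Markers of the myeloid leukaemia itself moved in opposite directions together with the histone sums. Of the 15, 8 rose and 5 fell (median log2 fold change 0.22), beside 35.3% and 31.6% of all tested features. Their sum of 17851 to 17979 TPM in PBS and 13541 to 13605 TPM in CS1 was dominated by Lyz2, the lysozyme of mature myeloid cells. Picked after their values were seen, Lyz2 fell from a mean of 13192 to 6207 TPM, while Mpo and Elane, granule enzymes of myeloid precursors, rose by log2 fold changes of 2.33 and 2.56. Ms4a3 rose by 2.15, the stem cell factor receptor Kit by 1.68 and Hoxa9 by 1.22 on the same scale. The part of this change in myeloid markers in the histone difference was not tested.

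Markers of other cell types of the spleen were low. Of 15 erythroblast markers, 5 were tested, 2 rose and 1 fell, with sums of 41.7 to 42.5 TPM in PBS and 55.1 to 63.4 TPM in CS1. The fall was that of Hbb-b1, from 9.37 and 8.86 TPM to 0.01 TPM in both CS1 libraries. The rises were those of Tfrc and of Hbb-bs, the latter from 0.01 TPM in both PBS libraries to 13.5 and 12.2 TPM. Reads of these beta-globin genes may have been placed on one or the other, so their calls are not read as marker changes. Of the tested markers, 3 of 5 for T cells and 5 of 8 for B cells fell, beside 31.6% of all tested features. B cell marker sums were 58.7 to 59.9 TPM in PBS and 35.8 to 40.5 TPM in CS1, and T cell marker sums 14.6 to 16.3 and 8.78 to 8.94 TPM. Megakaryocyte markers, with Pf4 and Ppbp at the lowest listed value in all libraries, summed to 8.81 to 9.56 TPM in PBS and 12.8 to 15.3 TPM in CS1. NK cell markers summed to 9.71 to 10.2 and 9.98 to 10.5 TPM, and markers of stroma and endothelium, of which Dcn was at the lowest listed value, to 50.5 to 52.0 and 43.9 to 46.6 TPM. The part of these cells in the histone difference was not tested.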

How the data were processed

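Expression was measured by RNA-seq in 4 libraries, 2 from PBS and 2 from CS1 mice, grouped by title. Per the submitters' processing notes, STAR, RSEM and the build mm10 were used by the authors; the sources used here give no versions, annotation or strand setting. The deposited table gives values taken as TPM made by the authors, a unit inferred from the column sums and from decimals; 0.01 is the lowest listed value. TPM keeps no depth, so no counting interval is given. The labels do not say that libraries came from separate mice, so the p-values rest on the spread among these samples, which may be technical.

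Values were compared as log2(TPM + 1), for the features that reached 1 TPM in 2 or more of the 4 libraries, in limma 3.58.1 (R 4.3.3) with a variance trend, two-sided, with p-values adjusted by Benjamini and Hochberg across the 11866 features and a threshold of 0.05. Because the values are not counts, the factors of one scaling alternative, the trimmed mean of M values (TMM), were computed without weights. The script was tested on simulated data. Fold changes on this scale understate changes of low genes. Class sums add TPM over members and carry no test. Same-numbered libraries of the groups were checked for shared deviations (r = 0.0219 over the tested features), and the numbers were not taken as pairs.

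Members and lists were chosen with earlier results of these data known. Named members were, by a written rule, the 3 most abundant of each class, the 5 largest and 5 smallest called changes with groups that do not overlap, every H1 gene, genes at the edge of the filter, those that reached it through 1 group, and partners of the pairs described; other named members (Hist1h3b, Hist1h3d, Hist1h4f, Hist1h4j, Hist1h4m, Hist4h4) were picked after their values were seen. Of the related lists, Slbp, Npat, Mki67, Pcna and the 3 genes of smallest p in the processing and chaperone lists were named. All 69 rows were matched by symbol to GENCODE M21 (GRCm38, the build called mm10), whose transcripts gave stem-loops, coordinates and shared 50-base words. RefSeq (GRCm38.p6) gave promoters. Alternatives were other pseudocounts, filters and scalings, no variance trend, a replicate block and each library left out. An alternative added after seeing the data leaves out members that share at least 50% of their words with another gene.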

Additional observations from a re-analysis of the deposited data

How the results depend on the processing

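The count of 50 members called higher was also 50 with pseudocounts of 0.1 and 0.5, with a filter on a mean of at least 1 TPM and with TMM factors, 48 after quantile scaling, 47 without the variance trend, 43 of 66 rows with no filter and 41 of 47 members with a mean of at least 5 TPM. With the replicate block it was 53, although the equal numbers do not pair libraries by the labels. Leaving out 1 library gave 45 to 49 higher. The count lower was 0 except 1 after quantile scaling (Hist1h2af), and 0 to 2 with 1 library left out (Hist1h3d without PBS replicate 1, Hist1h3b and Hist3h2a without CS1 replicate 2). As log2 ratios, the sums with 1 library left out ranged from 1.04 to 1.07 for H1 (main 1.05), 1.37 to 1.54 for H2A (1.46), 1.49 to 1.59 for H2B (1.54), 1.04 to 1.14 for H3 (1.09), 0.61 to 0.68 for H4 (0.65) and 1.201 to 1.27 in total (1.24). TMM gave 1.00 for H1, and quantile scaling 1.46 for H2B, 0.95 for H3 and 0.59 for H4. Without the most abundant gene of each class the values were 0.64 for H1, 0.87 for H2A, 1.41 for H2B, 0.77 for H4 and 0.97 in total. Without members that share words, chosen after seeing the data, they were 0.53 for H2A, 0.91 for H3 and 1.01 in total. Signs turned with 1 library left out for Hist1h4i (-0.10 to 0.21), Hist3h2a (-0.28 to 0.070) and Slbp (-0.075 to 0.045), and for Slbp after quantile scaling (0.047). These genes were not called with 4 libraries. The cause of these shifts was not tested. No read depth is known, so the precision of low members, such as those listed at 0.01 in 1 library, cannot be given.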
